A study of Homo sapiens with 4 samples.

Results

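The genes described here encode the cytokine receptor and JAK-STAT signalling chain of a T cell, its SOCS, PIAS and phosphatase brakes, and the core of the TGF-beta pathway. They were taken from a fixed list of 49 names, each of which matched 1 Ensembl gene ID among the 64252 in the deposited count table. The sequenced RNA came from cells of J.gamma1, a mutant clone of Jurkat, a human line from a T-cell acute lymphoblastic leukaemia, or T-ALL. The clone is described as deficient in PLCG1, the phospholipase that acts downstream of the T-cell receptor. FB23-2 was given to 1 group at 10 µM for 48 h. It is a small-molecule inhibitor of the RNA demethylase FTO. The other group had the solvent DMSO at below 0.1% over the same time. Each group held 2 libraries from separate biological replicates, and the same mutant clone was used in both groups. The comparison addressed which transcripts FB23-2 modulates in this line.

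Cytokines such as the interleukins bind paired receptor chains that carry JAK kinases on their inner tails. The kinases phosphorylate STAT proteins, which enter the nucleus and switch on genes, among them the SOCS genes that shut the receptors down again. PIAS proteins act on STATs in the nucleus, and the PTPN phosphatases remove phosphate groups from receptors, JAKs and STATs. TGF-beta signals in parallel, through a pair of receptor kinases and the SMAD proteins, and in T cells it restrains growth and cytokine responses.

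Library totals ran from 24615359 to 37804516 counts, and 18817 genes had enough counts to be tested. Levels are in CPM, for which each count was divided by its library's TMM effective size. Changes are log2 fold changes, FB23-2 minus control, given ± the standard error (SE). A gene was called where its edgeR adjusted p was below 0.05 over all tested genes. With 10.5% as the common biological coefficient of variation between replicates, changes well under 1.5-fold were called in well-covered genes. T-cell identity was in view in both groups: the T-cell receptor gene CD3E averaged 464 CPM in control libraries and 398 CPM in treated ones. The summed level of 14 T-cell and T-ALL markers was 2287 and 2288 CPM in control and 1662 and 1755 CPM with FB23-2. Of these markers, 11 (78.6%) were called lower and 0 higher, beside 20.3% and 21.8% over all tested genes. Of 7 myeloid markers, CD68 was called higher, from 0.820 to 11.3 CPM, and CSF1R and CD14 stood at 10 counts or fewer in each library. The myeloid markers summed to 3.11 and 2.79 CPM in control and to 11.3 and 15.6 CPM with FB23-2. Most of the treated sum was CD68 itself, at 8.82 and 13.8 CPM. LYZ averaged 0.830 CPM in control and 0.434 CPM with FB23-2, ITGAM 0.996 and 1.35 CPM, and neither was called. None of 3 tested B-cell and 2 tested natural killer markers was called, and of 6 tested epithelial or stromal markers 2 were called lower. PLCG1 RNA averaged 265 CPM without and 293 CPM with FB23-2 and was called higher (0.14 ± 0.04, edgeR adjusted p = 0.0125). These levels say nothing about the protein. In RNA from whole cultures, a change in the share of cells that make a transcript and a change in the amount per cell cannot be told apart.

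Among the 49 genes, 46 had enough counts to be tested. FB23-2 raised 24 of them and lowered 4, and 18 did not pass. Over all tested genes 21.8% were called higher and 20.3% lower, against 52.2% and 8.70% of these 46. The genes were chosen with earlier results of these data known, so the shares describe the list and were not tested. The median log2 fold change of the 46 was 0.22, beside 0.00 over all tested genes. The median absolute change was 0.37, beside 0.34. Of the 13 tested interleukin receptor chains 8 rose and 0 fell. All of the JAK kinases rose, and so did 5 of 6 TGF-beta genes. Of the 5 listed STATs 2 rose and 1 fell, and of the 8 SOCS family genes 1 rose and 1 fell. With so few genes, calls in both directions are not a result about these families. No called gene of the list changed direction under any of the settings tried. IL13RA1, IL6R and IL18R1 were not tested: they had at most 9 counts in any library, and IL6R had 2 counts in control replicate 1 and 0 elsewhere, where 3 counts correspond to 0.0785 to 0.125 CPM.

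**Figure D1:**
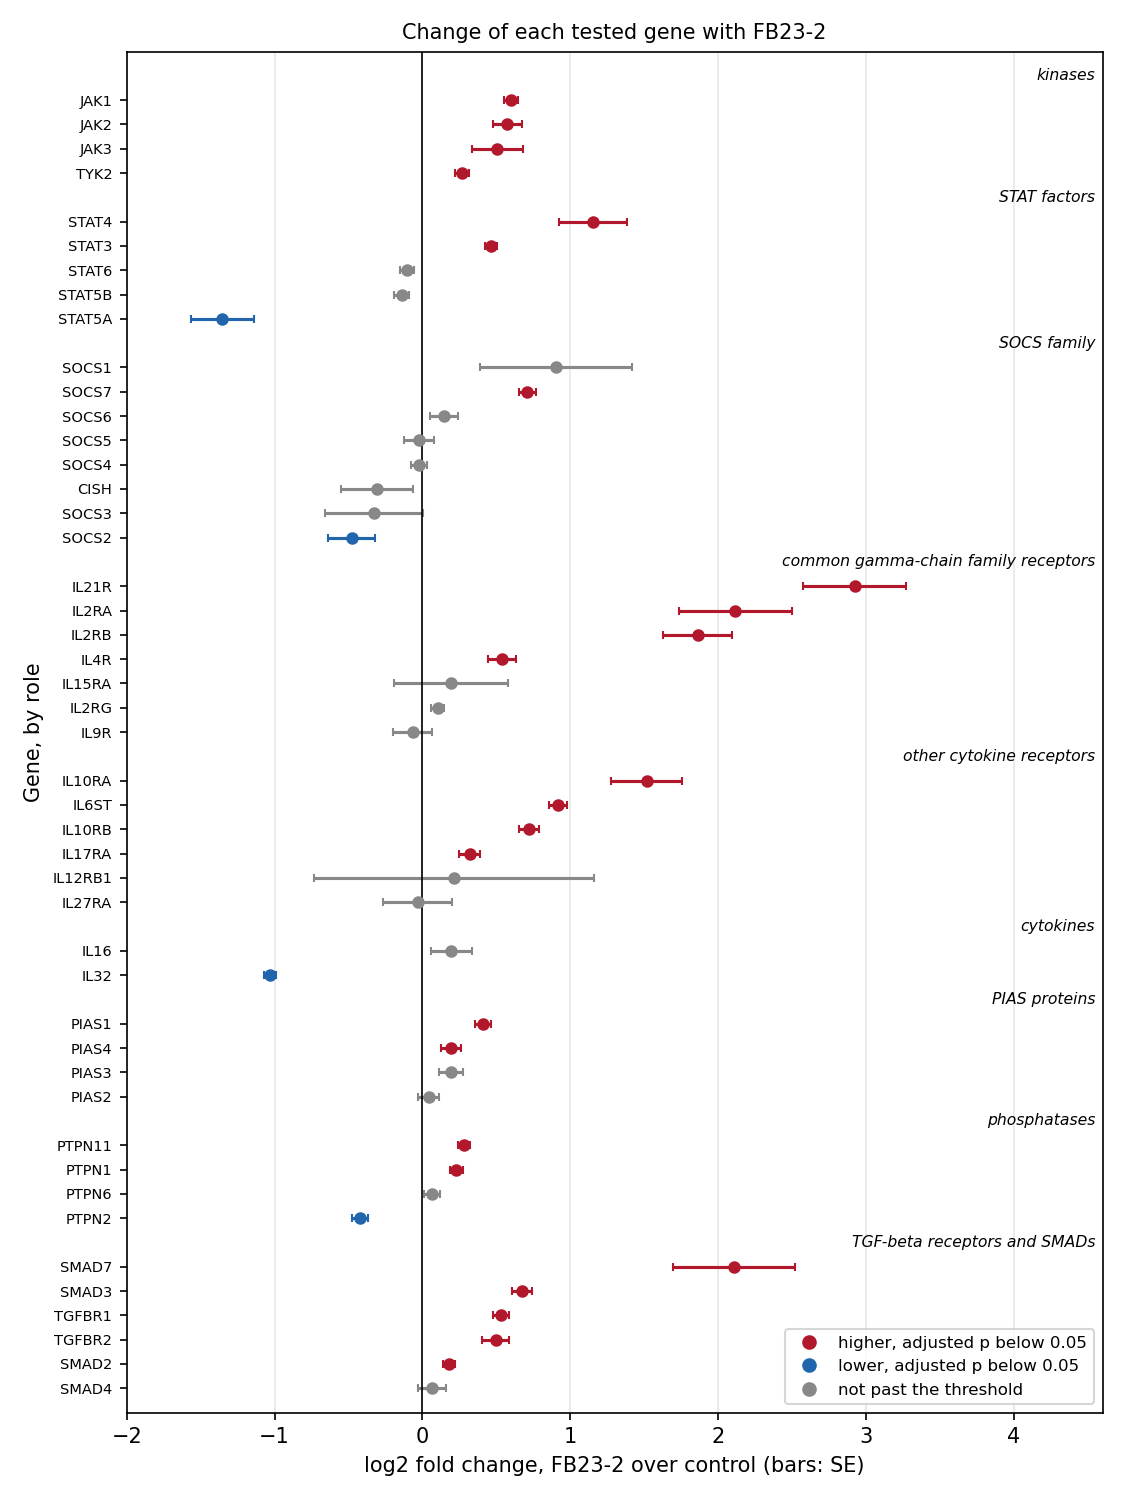
Log2 fold change of FB23-2 over control for the 46 tested genes, grouped by role, with bars for the SE and colour for the call. Red points lie to the right of 0 in every role group except the cytokines, and the blue points are STAT5A, SOCS2, IL32 and PTPN2.

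STAT dimers bind a palindrome, and its letters in the start regions of these genes are shown first because CISH, a textbook STAT5 target, stands out by them. The motif TTCNNNGAA reads the same on both strands. It was searched for in RefSeq windows of GRCh38.p14 that run from 250 bases before to 50 after an annotated start. Of the 49 genes, 43 had such a window. IL17RA, IL2RB, PTPN11, SOCS2, SOCS5 and SOCS7 had none in the table. The motif was found in 4 of the 43 genes (9.30%), beside 9.38% of the 27305 genes in the table. CISH, which encodes an SH2-domain brake on STAT5 signalling, held 4 matches, a number reached or passed in 7 of the table's 35116 windows, 1 of them of BCL6. The stretch lies at chr3:50611862-50612024 on the minus strand, upstream of the annotated CISH gene, and is written 5′ to 3′ with the matches in capitals.
CISH: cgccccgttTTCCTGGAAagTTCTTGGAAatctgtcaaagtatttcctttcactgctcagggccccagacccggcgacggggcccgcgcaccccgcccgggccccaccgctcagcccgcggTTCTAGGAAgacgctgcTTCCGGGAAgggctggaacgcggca
The matches begin 241, 230, 129 and 112 bases before the start site. The other genes held 1 match each.
SMAD3: TTCTAGGAA
IL15RA: TTCGGCGAA
IL10RB: TTCCCGGAA
In SMAD3 it lies on chromosome 15 at 67137952 to 67137960, within an intron of the longest gene model and 69 bases before an internal start. In IL15RA and IL10RB it lies in an annotated untranslated part of an exon. The IL15RA match begins 127 bases before the start site of its window. These are matches of letters, not evidence of binding, and no binding was measured here.

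The JAK kinases all rose. JAK1, which serves most of the receptors listed here, read 117 and 112 CPM in control and 170 and 176 CPM with FB23-2. Both treated libraries lay above both controls, for a log2 fold change of 0.60 ± 0.05 (SE; edgeR adjusted p = 1.15e-05). JAK2, the kinase of the erythropoietin and growth hormone type receptors, stood at 17.3 CPM in each control and at 24.5 and 27.2 CPM with FB23-2 (0.58 ± 0.10, edgeR adjusted p = 0.00116). TYK2, which pairs with JAK1 or JAK2 on interferon, IL-10 and IL-12 receptors, moved less, from 104 and 108 to 128 and 127 CPM (0.27 ± 0.05, edgeR adjusted p = 0.00151). JAK3 is the kinase that binds the common gamma chain, and its groups lay close together, at 8.51 and 10.5 CPM in control and 11.8 and 15.7 CPM with FB23-2. Its change of 0.51 ± 0.17 passed narrowly (edgeR adjusted p = 0.0404). JAK3 lost its call without FB23-2 replicate 2 (adjusted p = 0.228), without control replicate 1 (0.220), without control replicate 2 (0.0664), with upper quartile scaling (0.0570) and with no filter (0.0983). All of the alternatives together spanned 0.00681 to 1, which takes in a test against a change of 1.5-fold rather than of 0. The ranges given below include that test, while the lost calls listed or counted leave it out. Per kilobase of exon, JAK1 was the most abundant of the kinases in control at 18.2 CPM per kb, ahead of TYK2 at 15.6, with JAK2 at 2.81 and JAK3 at 1.40.

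Among the STATs, STAT3 and STAT4 rose and STAT5A fell. STAT3, the main STAT of IL-6, IL-10 and IL-21 signalling, read 192 and 195 CPM in control and 269 and 264 CPM with FB23-2 (0.46 ± 0.04, edgeR adjusted p = 2.11e-05). STAT4, the STAT of IL-12 and a marker of type 1 helper T cells, was low, at 1.99 and 1.86 CPM in control and 4.48 and 4.04 CPM with FB23-2. That is a 2.23-fold rise (1.15 ± 0.23 on the log2 scale, edgeR adjusted p = 0.0031) on 48 and 64 counts in control.

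STAT5A and STAT5B are near-identical neighbours on chromosome 17 that carry IL-2 family signals, and how the authors' counting treated reads common to both is not given in the sources used here. STAT5A read 9.01 and 7.32 CPM in control and 2.62 and 3.72 CPM with FB23-2, with no overlap between groups. It fell by 1.35 on the log2 scale, with an SE of 0.21 (edgeR adjusted p = 8.06e-04), and kept its call in each alternative, the test against 1.5-fold included. STAT5B, the far more abundant of the pair, stood at 109 and 117 CPM in control and 102 and 103 CPM with FB23-2. Its change of -0.14 ± 0.05 missed the threshold (edgeR adjusted p = 0.0566), but passed under 5 alternatives, with adjusted p values from 0.0210 with upper quartile scaling in a range that reached 1. Per kilobase, STAT5A made up 8.50% and 6.56% of the pair's level in control and 2.79% and 3.89% with FB23-2, so that the pair as a whole was nearly all STAT5B in every library. STAT6, the STAT of IL-4, had a change of -0.11 ± 0.05 (edgeR adjusted p = 0.122), which passed with upper quartile scaling alone (0.0406, range to 1).

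**Figure D2:**
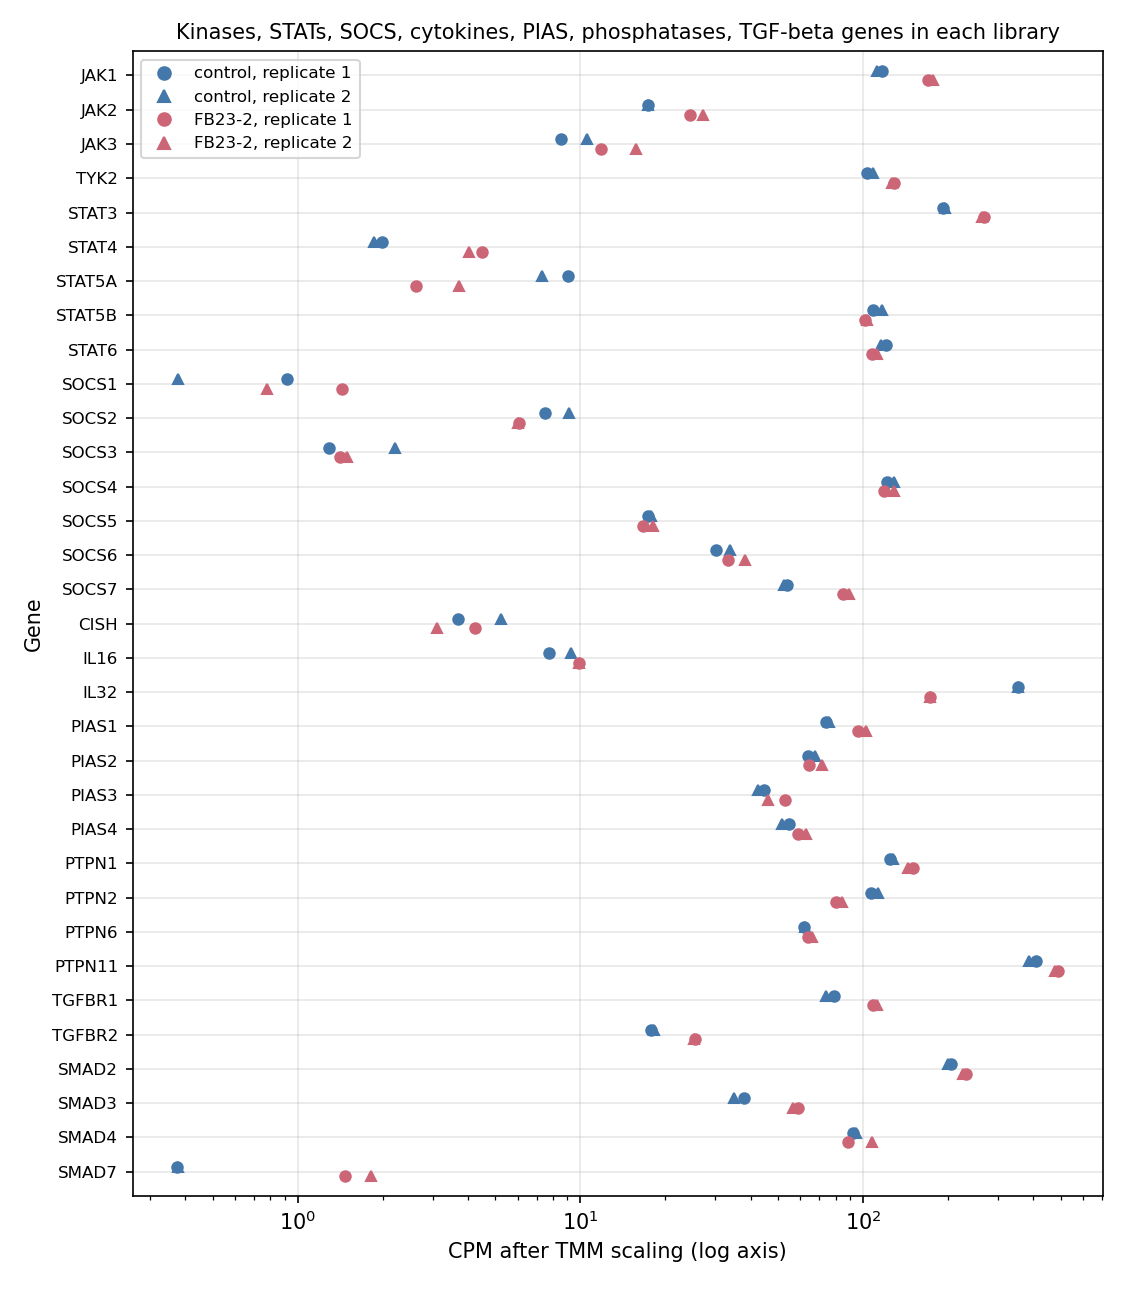
CPM of the kinases, STATs, SOCS genes, cytokines, PIAS genes, phosphatases and TGF-beta genes in each library, on a log axis, with circles for replicate 1 and triangles for replicate 2. The treated points of JAK1, STAT3, SOCS7 and SMAD3 lie to the right of both controls, and those of STAT5A and IL32 to the left. The treated points of SOCS3 lie between its controls, and in CISH the groups overlap.

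Of the 8 SOCS family genes, which encode feedback inhibitors that mark receptors and JAKs for breakdown, 1 rose and 1 fell. That is 12.5% each way, beside 21.8% called higher and 20.3% called lower over all tested genes. With 8 genes, the family cannot be told apart from those shares. SOCS7 read 54.0 and 52.7 CPM in control and 85.0 and 89.2 CPM with FB23-2 (0.71 ± 0.06, edgeR adjusted p = 1.4e-05). SOCS2, the inhibitor of growth hormone signalling and itself a STAT5 target, went from 7.47 and 9.09 CPM to 6.05 and 6.00 CPM. Its fall of -0.48 ± 0.16 (edgeR adjusted p = 0.0375) was not called without FB23-2 replicate 1 (adjusted p = 0.102), FB23-2 replicate 2 (0.114) or control replicate 2 (0.327). Neither was it called with library size scaling (0.0573), no filter (0.0656) or DESeq2 (0.0962), in a range of 0.0271 to 1.

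The STAT-induced brakes CISH, SOCS1 and SOCS3 were low and did not pass. CISH read 3.69 and 5.23 CPM in control and 4.24 and 3.11 CPM with FB23-2, so that its groups overlapped (-0.31 ± 0.24, edgeR adjusted p = 0.349). The exons of CISH overlap by 218 bases with those of MAPKAPK3 on the other strand, which had 11613 counts over the libraries beside 539 for CISH, and the strand setting of the counting is not given in the sources used here. SOCS1, which binds JAKs directly, had 22 and 13 counts in control and 55 and 27 with FB23-2 (0.90 ± 0.51, edgeR adjusted p = 0.194). SOCS3, which blocks gp130 signalling, had 31 and 76 counts in control and 54 and 52 with FB23-2 (-0.33 ± 0.33, edgeR adjusted p = 0.475). SOCS4, at 125 ± 5.04 CPM (SD, n = 2) in control and 123 ± 7.06 CPM with FB23-2, was the most abundant of the family per kilobase, and its log2 fold change was -0.02 ± 0.06. SOCS5 (-0.02 ± 0.10) and SOCS6 (0.15 ± 0.09) did not pass either.

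Among the receptors that signal with the common gamma chain or alongside it, IL21R and IL2RA had the largest rises of the list. SMAD7 of the TGF-beta genes came next, at 2.11 on the log2 scale beside 2.12 for IL2RA. Of the 7 tested receptors of this group 4 rose, or 57.1%, beside 21.8% over all tested genes. IL21R, the private chain of the IL-21 receptor, was scarce in control, with 24 and 14 counts, or 0.996 and 0.407 CPM. With FB23-2 it had 206 and 156 counts, or 5.39 and 4.50 CPM, both above both controls. On the log2 scale IL21R rose by 2.93 ± 0.35 (edgeR adjusted p = 1.46e-04). Its size rested on the control library used, at 3.58 without control replicate 1 and 2.31 without control replicate 2, while the call held in both.

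The alpha and beta chains of the IL-2 receptor rose as well. IL2RA (CD25), the alpha chain that gives the receptor its high affinity and a classical STAT5 target, had 8 and 20 counts in control and 76 in each FB23-2 library. These are 0.332 and 0.581 CPM against 1.99 and 2.19 CPM, for a log2 fold change of 2.12 ± 0.38 (edgeR adjusted p = 0.00176). IL2RB (CD122), the signalling chain of the IL-2 and IL-15 receptors, went from 1.41 and 1.80 CPM to 6.28 and 5.62 CPM (1.86 ± 0.23, edgeR adjusted p = 1.9e-04). The calls of IL21R, IL2RA and IL2RB held under every alternative, the test against 1.5-fold included.

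IL2RG, the common gamma chain itself, was abundant in all libraries, at 274 and 276 CPM in control and 304 and 286 CPM with FB23-2. The change was 0.10 ± 0.04 (edgeR adjusted p = 0.0831), which passed only with library size scaling (0.0149) and without FB23-2 replicate 2 (0.0398), while the alternatives reached 1. Per kilobase, IL2RB made up 0.301% and 0.382% of the 3 IL-2 receptor chains in control and 1.20% and 1.13% with FB23-2. The share of IL2RA was 0.0840% and 0.146% in control and 0.449% and 0.524% with FB23-2, so that even after the rise nearly all of the summed level was IL2RG.

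IL4R, the chain of the IL-4 and IL-13 receptors, rose from 18.1 and 17.6 CPM to 27.0 and 24.7 CPM (0.54 ± 0.09, edgeR adjusted p = 0.00147). Its usual IL-13 partner IL13RA1 had 8 and 9 counts in control and 5 and 4 with FB23-2. IL15RA, which presents IL-15, had 17 to 40 counts per library and a change of 0.19 ± 0.39. IL9R, at 13.8 and 12.3 CPM in control and 13.4 and 11.2 CPM with FB23-2, had a change of -0.07 ± 0.13. IL9R lies in the region common to the X and Y chromosomes and has near-identical pseudogenes, so its count is uncertain.

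**Figure D3:**
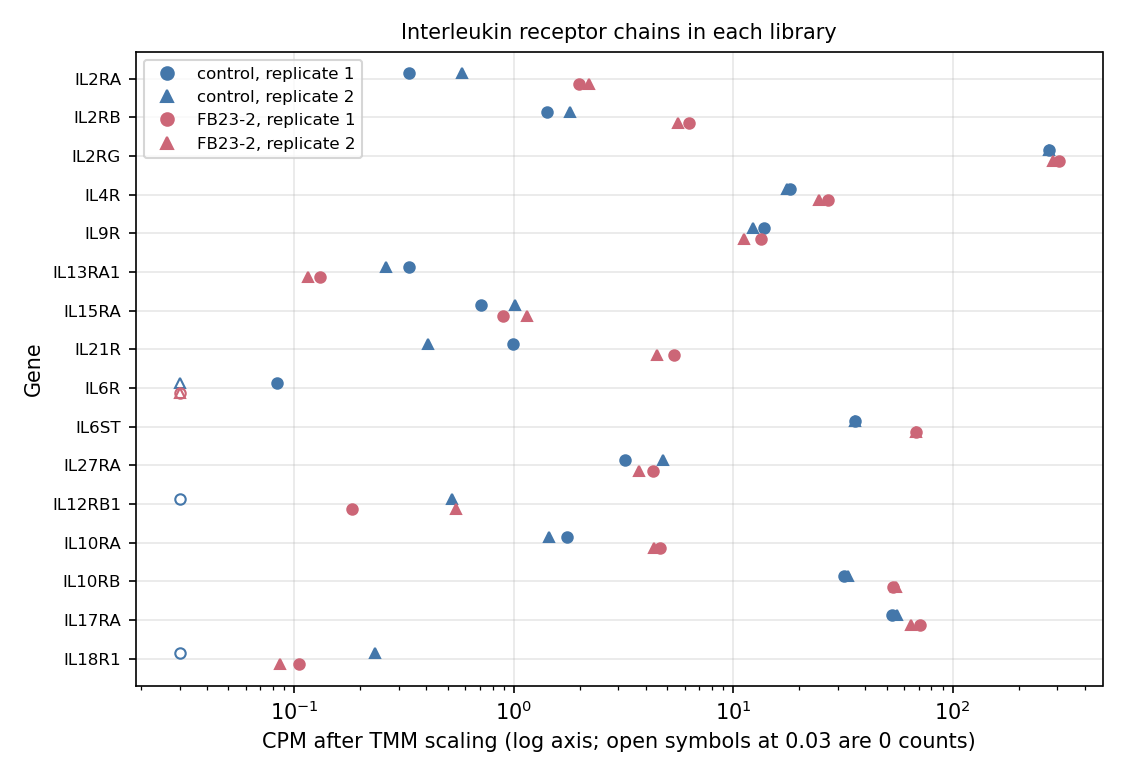
CPM of the 16 interleukin receptor chains in each library, on a log axis, with circles for replicate 1, triangles for replicate 2 and open symbols for 0 counts. IL2RA, IL2RB, IL21R and IL10RA stand apart between the groups at low levels, from under 2 CPM in control, whereas IL2RG lies near 300 CPM in all libraries.

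Beyond the gamma-chain family, 4 of 6 tested receptor chains rose, and IL27RA and IL12RB1 did not pass. The share that rose, 66.7%, stands beside 21.8% over all tested genes. IL6ST (gp130), the signal transducer of the IL-6 family, read 35.9 and 36.0 CPM in control and 67.8 and 67.9 CPM with FB23-2. The replicates of each group lay within 1 CPM of each other, and the rise of 1.89-fold (0.92 ± 0.06 on the log2 scale, edgeR adjusted p = 4.74e-06) held under every alternative. The IL-6 binding chain IL6R was at or near 0 counts throughout. IL27RA, which pairs with gp130 to bind IL-27, was present at 3.20 and 4.79 CPM in control and 4.32 and 3.72 CPM with FB23-2 (-0.03 ± 0.23). IL12RB1, the shared chain of the IL-12 and IL-23 receptors, had between 0 and 19 counts (0.21 ± 0.95).

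Both chains of the IL-10 receptor rose. IL10RA, the ligand-binding chain, went from 1.74 and 1.45 CPM to 4.66 and 4.35 CPM (1.52 ± 0.24, edgeR adjusted p = 8.1e-04), on 42 and 50 counts in control. IL10RB, the accessory chain also used for IL-22 and type III interferons, went from 32.1 and 33.3 to 53.2 and 55.0 CPM (0.72 ± 0.07, edgeR adjusted p = 3.35e-05). A read-through gene model with IFNAR2 covers 38.1% of IL10RB exon bases, and had 65 counts beside 5860. IL17RA, the common chain of the IL-17 receptors, rose from 52.7 and 55.7 to 71.1 and 64.3 CPM (0.32 ± 0.07, edgeR adjusted p = 0.00473). The call was lost when FB23-2 replicate 1 was left out (adjusted p = 0.0515) or control replicate 1 (0.0546), and the alternatives spanned 0.00198 to 1. IL18R1 had between 0 and 8 counts. The part of the myeloid marker CD68 or of the fall in T-cell markers in these receptor changes was not tested.

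IL32, a pro-inflammatory cytokine made by T cells, was the most abundant of the 49 genes per kilobase in control. It stood at 352 and 354 CPM there and at 173 and 172 CPM with FB23-2, so that the level fell by 1.03 on the log2 scale, with an SE of 0.04 (edgeR adjusted p = 3.22e-07). The replicates of each group differed by under 2 CPM, and the fall held in each alternative. IL16, a chemoattractant for CD4 cells, read 7.76 and 9.27 CPM in control and 9.89 and 9.86 CPM with FB23-2 (0.20 ± 0.14, edgeR adjusted p = 0.306). Its exons overlap by 36.0% with STARD5 on the other strand, which had 1524 counts to its 1226.

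PIAS proteins, SUMO ligases that restrain STATs, moved little. PIAS1 rose from 74.0 and 75.5 CPM to 96.2 and 103 CPM (0.41 ± 0.05, edgeR adjusted p = 2.95e-04). The exons of PIAS1 overlap by 30.3% with CALML4, an opposite-strand gene with 820 counts beside 11615. PIAS4 passed narrowly (0.19 ± 0.07, edgeR adjusted p = 0.0386), and lost its call under 7 alternatives. They included leaving out FB23-2 replicate 1 (adjusted p = 0.0599), FB23-2 replicate 2 (0.185), control replicate 1 (0.0821) and control replicate 2 (0.236). Its alternatives spanned 0.0155 to 1. PIAS2 (0.04 ± 0.07) and PIAS3 (0.19 ± 0.08) did not pass, PIAS3 except with library size scaling (adjusted p = 0.0342) and without FB23-2 replicate 2 (0.0255), in a range to 1.

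The tyrosine phosphatases split. PTPN2 (TC-PTP), which dephosphorylates JAK1, JAK3 and STATs in the nucleus, read 107 and 113 CPM in control and 80.3 and 84.1 CPM with FB23-2. It fell by 0.42 on the log2 scale, with an SE of 0.05 (edgeR adjusted p = 2.26e-04). Its closest relative PTPN1 (PTP1B), which acts on JAK2 and TYK2, rose from 124 and 127 to 151 and 144 CPM (0.23 ± 0.05, edgeR adjusted p = 0.00331). Without control replicate 1, PTPN1 had an adjusted p of 0.0518, in a range of 0.00104 to 1. PTPN11 (SHP2), a phosphatase that relays receptor signals to RAS, was the most abundant phosphatase here. It read 410 and 388 CPM in control and 491 and 479 CPM with FB23-2 (0.28 ± 0.04, edgeR adjusted p = 4.7e-04). A 111-base overlap of its exons with those of the ribosomal protein gene RPL6 on the other strand, with 151935 counts to its 58609, bears on its count if strand was not used. PTPN6 (SHP1), the inhibitory phosphatase of blood cells, had a change of 0.06 ± 0.06 (edgeR adjusted p = 0.408).

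In the TGF-beta pathway, 5 of 6 genes rose, or 83.3%, beside 21.8% over all tested genes. TGFBR1, the type I receptor kinase, read 78.9 and 73.9 CPM in control and 109 and 112 CPM with FB23-2 (0.53 ± 0.05, edgeR adjusted p = 5.38e-05). TGFBR2, the type II receptor that binds the ligand, went from 17.7 and 18.2 to 25.4 and 25.3 CPM (0.49 ± 0.09, edgeR adjusted p = 0.00168). SMAD3, a receptor-activated transducer, went from 37.8 and 35.0 to 59.1 and 56.6 CPM (0.67 ± 0.07, edgeR adjusted p = 6.19e-05). In each of these genes the treated libraries lay above both controls.

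SMAD2, the companion of SMAD3, rose by less, at 205 and 199 CPM in control and 232 and 226 CPM with FB23-2 (0.18 ± 0.04, edgeR adjusted p = 0.00718). The call was lost when FB23-2 replicate 1 was left out (adjusted p = 0.0699) or control replicate 2 (0.0878), and the alternatives spanned 0.00154 to 1. SMAD4, the partner common to all SMAD signals, did not pass (0.06 ± 0.09, edgeR adjusted p = 0.636), and its treated libraries were unlike, at 88.1 and 107 CPM beside 92.4 and 94.4 CPM in control. Without FB23-2 replicate 1 its adjusted p was 0.0471, in a range to 1. SMAD7, the inhibitory SMAD that TGF-beta itself induces, had 9 and 13 counts in control and 56 and 63 with FB23-2. The rise from 0.374 and 0.378 CPM to 1.47 and 1.82 CPM was 4.31-fold (2.11 ± 0.41 on the log2 scale, edgeR adjusted p = 0.00285), and its call held under every alternative.

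Set against a change of 1.5-fold rather than of 0, 8 of the 49 genes still passed. These were IL21R, IL2RA, IL2RB, IL10RA, IL6ST and SMAD7 on the higher side and IL32 and STAT5A on the lower. All but IL32 and IL6ST were at a mean below 10 CPM in either group, and the most abundant genes that rose, such as JAK1, STAT3 and PTPN11, did so by about 1.5-fold or less.

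**Figure D4:**
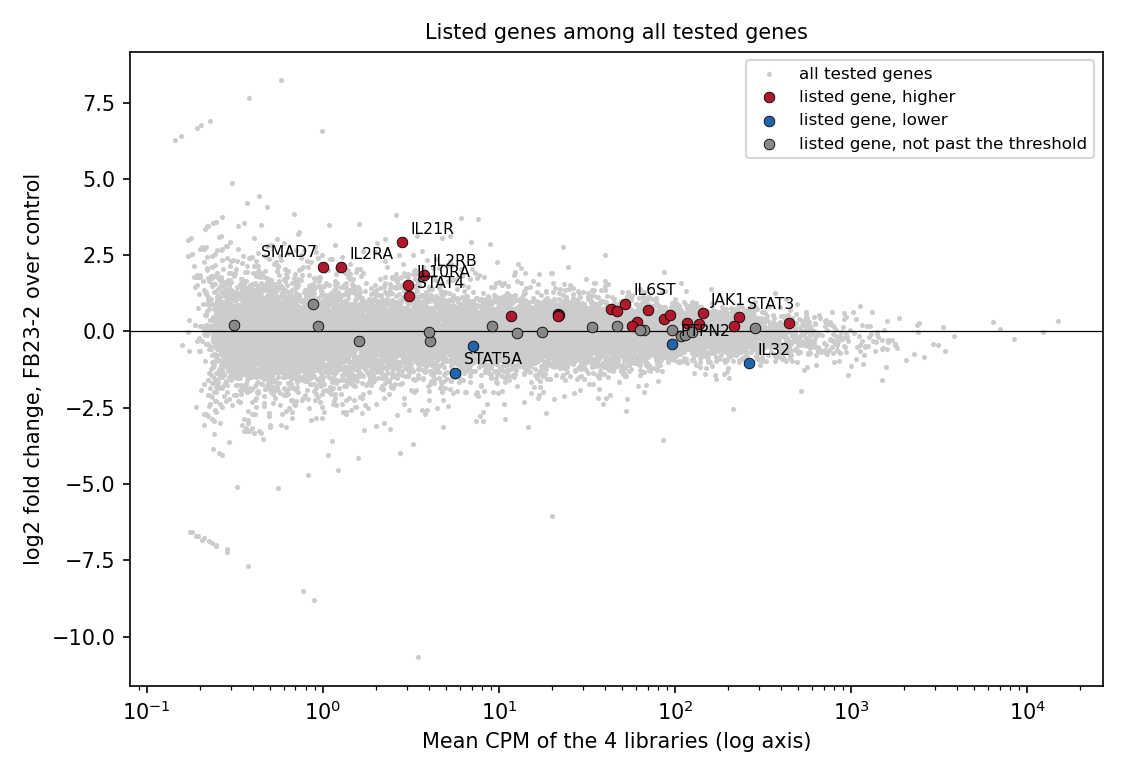
Log2 fold change against mean CPM of the 4 libraries (log axis) for all 18817 tested genes in grey and the 46 tested genes of the list in colour by call. IL21R, IL2RA and SMAD7 lie above 2 at mean levels below 3 CPM, and IL32 at -1.03 is the lowest of the listed genes above 100 CPM.

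Other genes of the same pathways were read from lists chosen with earlier results of these data known. Of 37 further receptor-related genes (36 chains and the ligand TSLP), 22 were tested, and 5 rose and 0 fell, with a median of 0.14. The 22.7% that rose is near the 21.8% over all tested genes. EPOR, the erythropoietin receptor (0.87 ± 0.11), and LIFR, a gp130 partner (0.85 ± 0.18), rose. IFNLR1, the binding chain for type III interferon, which shares IL10RB, rose from 0.913 and 1.05 CPM to 2.67 and 2.28 CPM (1.32 ± 0.30, edgeR adjusted p = 0.00672), but not without control replicate 2 (0.0527; the alternatives spanned 0.00517 to 0.0979). IL7R, the survival receptor of T-cell precursors, did not pass (-0.17 ± 0.11, edgeR adjusted p = 0.249). The count of receptors that rose was 3 without control replicate 2.

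Among 34 further STATs and modulators, 32 were tested, and 13 rose and 4 fell, with a median of 0.13. These are 40.6% and 12.5%, beside 21.8% and 20.3% over all tested genes. STAT2 went from 50.6 and 51.1 CPM to 105 CPM in both treated libraries (1.04 ± 0.05), and its partner in the interferon complex IRF9 rose (1.17 ± 0.23). The adaptor GAB2, which binds PTPN11, showed the largest rise (1.32 ± 0.06, from 48.1 and 51.5 CPM to 127 and 123 CPM). PTPN7, a phosphatase of MAP kinases in blood cells (-0.48 ± 0.06), CUL5, the cullin that SOCS proteins recruit (-0.31 ± 0.06), and the JAK2 adaptor SH2B1 (-0.26 ± 0.06) fell. SH2B1 was not called without control replicate 2 (edgeR adjusted p = 0.0888; the alternatives spanned 0.00338 to 1), where 2 of the modulators fell.

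Genes known as STAT targets were called in both directions. Of 35, which include IL2RA, CISH, SOCS1, SOCS2 and SOCS3, 32 were tested, and 11 rose and 5 fell, with a median of 0.13. The shares of 34.4% and 15.6% stand beside 21.8% and 20.3% over all tested genes, so calls in both directions are not a result about this list. Besides IL2RA, ID2, an inhibitor of helix-loop-helix factors (1.68 ± 0.24), and FOS (1.46 ± 0.36) had the largest rises at a mean of at least 1 CPM. FOS lost its call when FB23-2 replicate 1 was left out (edgeR adjusted p = 0.0665), and likewise for control replicates 1 (0.0688) and 2 (0.0541), and its alternatives spanned 0.00722 to 0.110. MYC (-2.55 ± 0.06), SOCS2 and the survival gene BCL2L1 (-0.39 ± 0.05) were the lowest at that level. BCL6, picked out here after its values were seen because its start region also held 4 motif matches, rose from 5.31 and 5.37 CPM to 11.3 and 12.9 CPM (1.17 ± 0.15), unlike CISH. The counts were 7 and 2 without control replicate 2, and 3 of the targets fell without FB23-2 replicate 2, with DESeq2 or with no filter.

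**Figure D5:**
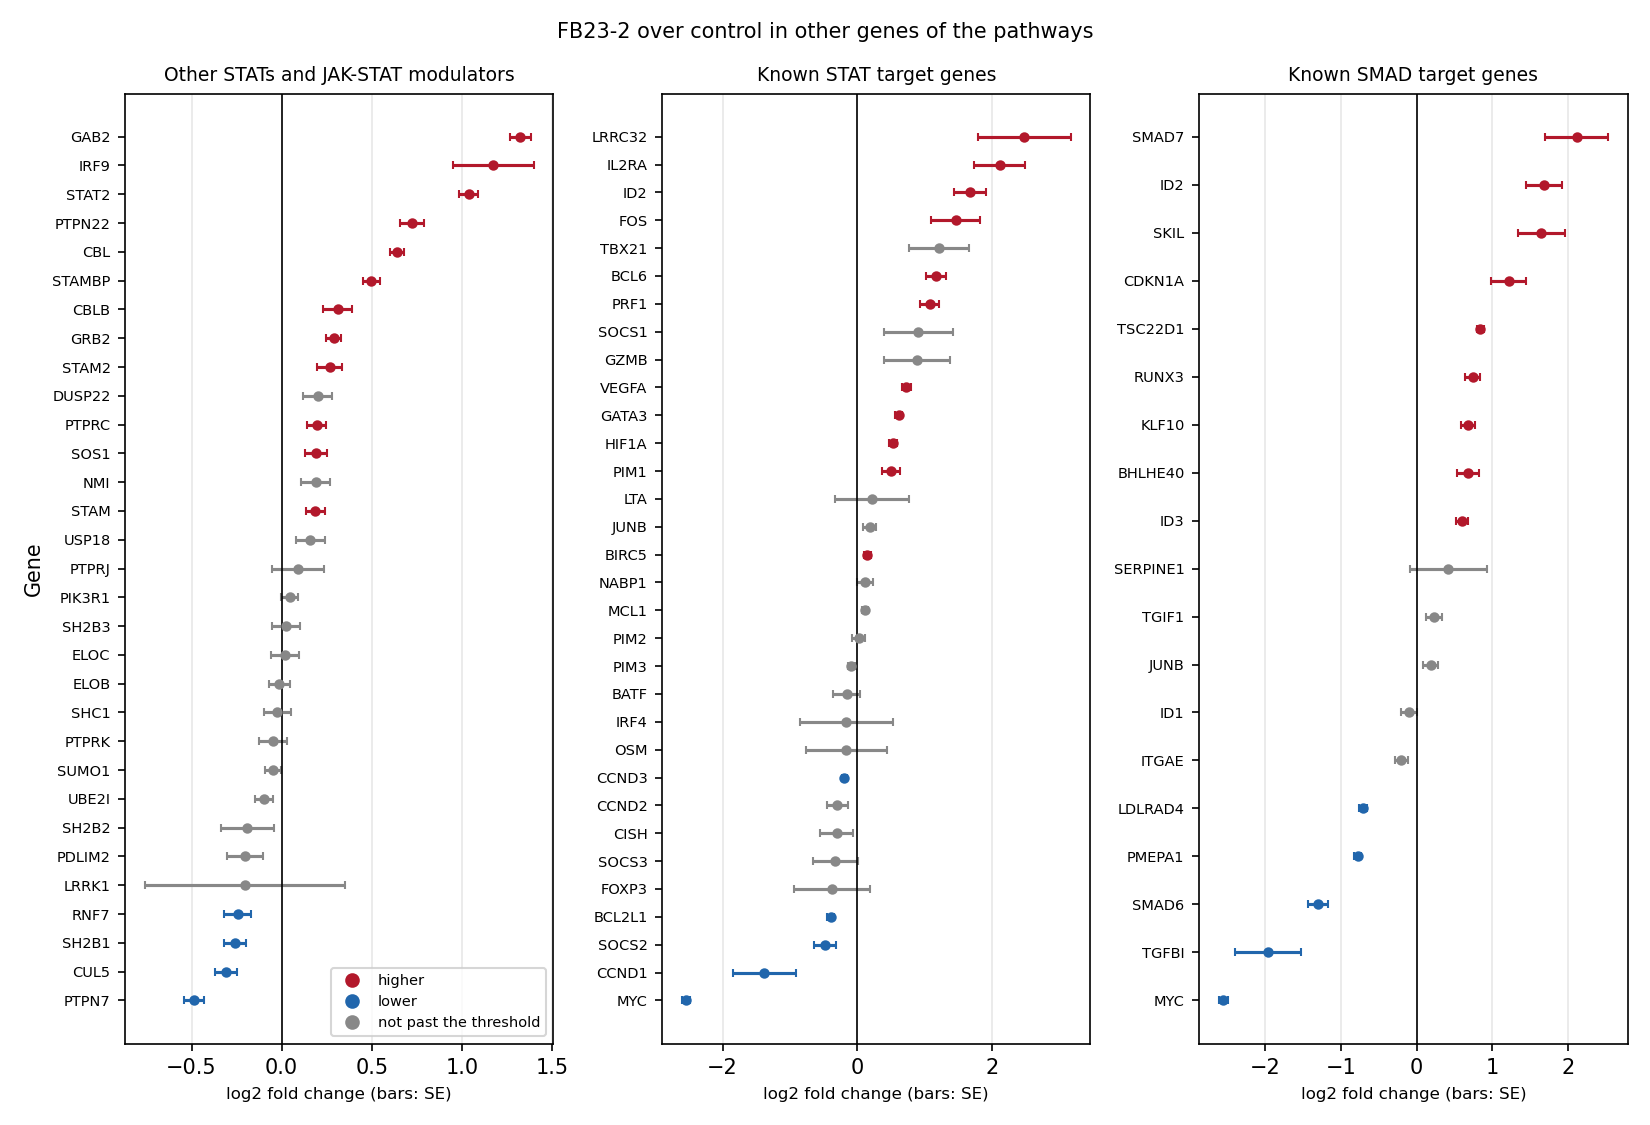
Log2 fold change of FB23-2 over control, with SE, for the tested genes of 3 pathway lists (1 modulator is not shown), each sorted by its change and drawn on its own axis. More modulators are red than blue, and both target lists hold red and blue points, with MYC at -2.55 the lowest in both.

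Of 43 further TGF-beta and BMP pathway genes, 39 were tested, and 15 rose and 8 fell, with a median of 0.14. The 20.5% that fell is near the 20.3% over all tested genes, and the 38.5% that rose stands beside 21.8%. TGFB1, the main TGF-beta ligand of lymphocytes, rose from 52.6 and 58.0 CPM to 75.6 and 75.9 CPM (0.45 ± 0.06), and TGFB3 fell (-0.75 ± 0.20). TGFB3 lost its call when FB23-2 replicate 2 was left out (edgeR adjusted p = 0.0766), and likewise for control replicates 1 (0.0545) and 2 (0.104), and its alternatives spanned 0.0112 to 0.531. The BMP and activin receptors ACVR1 (0.74 ± 0.13) and BMPR2 (0.70 ± 0.10) rose. SMAD6, the inhibitory SMAD of the BMP arm, moved against SMAD7, from 15.6 and 14.8 CPM to 6.46 and 5.77 CPM (-1.30 ± 0.13). PMEPA1, a TGF-beta induced feedback inhibitor, fell from 229 and 230 CPM to 137 and 131 CPM (-0.78 ± 0.04). Without FB23-2 replicate 2 the counts were 9 and 5, and without control replicate 2 the number that fell was 4.

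Of 19 known SMAD targets tested among 21, SMAD7 included, 9 rose and 5 fell, with a median of 0.42. They make up 47.4% and 26.3%, beside 21.8% and 20.3% over all tested genes. SKIL, a SMAD co-repressor induced by TGF-beta, read 4.48 and 10.0 CPM in control and 24.9 and 23.1 CPM with FB23-2 (1.65 ± 0.31, edgeR adjusted p = 0.016). SKIL was not called without FB23-2 replicate 1 (adjusted p = 0.147), FB23-2 replicate 2 (0.134) or with the replicates as a block (0.0732). Its alternatives spanned 2.04e-04 to 0.147, and without control replicate 2 its change was 2.42. TGFBI, a matrix protein named for its induction by TGF-beta, fell from 1.91 and 1.31 CPM to 0.471 and 0.317 CPM (-1.96 ± 0.43, edgeR adjusted p = 0.00531). MYC, which TGF-beta is known to repress, was the lowest of the list.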

How the data were processed

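RNA of 2 FB23-2 and 2 control libraries of J.gamma1 cells was measured. The authors deposited whole-number counts per Ensembl gene without normalization. Per the submitters' processing notes, HISAT2 2.2.0, StringTie and hg38 were used. Annotation, strand setting and counting step: not given in the sources used here. Names came from a symbol list or GENCODE release 29, which also gave coordinates (hg38) and exon lengths for CPM per kb. Of 64252 IDs, 56591 had coordinates. LRRC33 of the TGF-beta list found no row under that name. Columns were matched through library names in the sample descriptions. Library totals were 37804516, 33983246, 24615359 and 34897961 counts. Replicates differed by a chi-square per degree of freedom of 6.69 and 7.48, more than counting noise, so none was a copy.

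Genes passing filterByExpr (minimum count 10) were scaled by TMM and compared by edgeR 4.0.16 in R 4.3.3 (glmQLFit, robust, then glmQLFTest on group), with Benjamini-Hochberg adjustment over all 18817. The SE is the absolute log2 fold change over the square root of F. The code was tested on simulated data. Alternatives were other scalings, filters, DESeq2 1.42.0, limma-voom 3.58.1, a replicate block, a test against 1.5-fold, and leaving out each library.

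The listed genes, pathway lists and rules were chosen with earlier results of these data known. All 49 genes were to be named, and from each pathway list up to 3 called genes in each direction at a mean of at least 1 CPM, with STAT2, IL7R, TGFB1, MYC and FTO; 1 further gene of the rule is not reported here. Promoter windows are RefSeq's (GRCh38.p14).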

Additional observations from a re-analysis of the deposited data

How the results depend on the processing

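Of the 46 tested genes of the list, 20 to 24 were called higher and 3 to 5 lower when any 1 library was left out, and over all tested genes 2899 to 3439 and 2751 to 3316. Scaling by RLE, upper quartile or library size, other filters, DESeq2 and limma-voom gave 22 to 26 higher and 3 to 6 lower. Against 1.5-fold, 6 and 2 of the list were called, and 434 and 678 of all genes. No direction of a called gene reversed. Labels number the replicates in both groups but do not say that a number marks a shared batch. The differences between replicates correlated by 0.24 across genes between the groups, and with a replicate block 24 genes of the list were higher and 5 lower, beside 24 and 4, and over all genes 4238 and 4030, beside 4097 and 3820. Only STAT5B was called there and not without the block (edgeR adjusted p = 0.0429). With 2 libraries in a group, leaving out 1 assumes that the lone library varies like the other group. Depth limits IL6R, IL18R1, IL13RA1 and IL12RB1, with at most 19 counts in a library, where no change was detectable.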

Other observations

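Of 35 cytokine and growth factor genes, 13 had enough counts to be tested, and 1 rose and 4 fell, with a median of -0.23. That is 7.69% and 30.8% of those tested, beside 21.8% and 20.3% over all tested genes. TGFB1 was the one that rose. LIF, a ligand of LIFR and gp130, had 37 and 55 counts in control and 29 and 24 with FB23-2 (-1.11 ± 0.34, edgeR adjusted p = 0.0264), and lost its call under DESeq2 (0.102) and without any 1 of the libraries (0.0764 to 0.138; all alternatives spanned 0.0207 to 0.277). TGFB2, TGFB3 and IL12A were the others lower. The number of ligands that fell was 0 without either control library and 1 without either FB23-2 library or with DESeq2, and 2 with no filter or at a mean of at least 1 CPM. IL2, IL4, IL9, IL21 and IFNG, named here after their counts were seen, had 0 counts in all libraries, which allows up to 0.125 CPM in control replicate 1, for counting error only. IL15, which signals through IL2RB and IL2RG, was present at 105 and 195 counts in control and 172 and 110 with FB23-2 and was not called. FTO, the named target of the compound, read 55.9 CPM in each control and 62.8 and 60.8 CPM with FB23-2 (0.14 ± 0.06, edgeR adjusted p = 0.0738).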
